A study of Homo sapiens with 6 samples.

Results

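The open chromatin sites around the genes of 10 platelet proteins were followed: the adhesive proteins VWF, THBS1, MMRN1 and SPARC, the granule membrane receptor SELP, the granule proteoglycan SRGN, the clotting factor subunit F13A1, and the growth factors TGFB1, PDGFA and PDGFB. The genes were chosen by name, with earlier results of these data known. Their sites are those of the authors' table (GRCh38) that overlapped the gene or the 50 kb on either side of it, which gave 181 of 181135 sites. VWF had 32 sites, PDGFB 25, SRGN 23, SPARC 23, PDGFA 20, TGFB1 19, THBS1 17, SELP 11, F13A1 7 and MMRN1 4. Chromatin was read by ATAC-seq, in which a transposase tags open DNA, in wild-type K562, an established human leukaemia line of erythroid and megakaryocytic character. The 3 groups were cells exposed to 25 nM PMA, a phorbol ester that switches on protein kinase C, for 0, 6 or 72 h, with 2 libraries each. All libraries came from this 1 line, the medium of the 72 h cells was renewed on the way, and no cells kept for 6 or 72 h without PMA were analysed here, so PMA and time in culture cannot be told apart. The labels do not say that the libraries of a group came from separate cultures, so p-values measure the spread between these libraries, which may be technical.

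Megakaryocytes are the bone marrow cells that shed platelets. They fill the platelet's alpha granules with adhesive proteins, clotting factors and growth factors, which are set free when the platelet meets a damaged vessel wall. ATAC-seq reads how open a promoter or a distal element is, and not the transcript or the protein. In bulk libraries a larger share of cells with an open site and a wider opening in each cell cannot be told apart.

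Promoter sequences, from RefSeq for GRCh38.p14, were at hand for 7 of the 10 genes. The 250 bases before the start are printed for 4 genes whose promoter sites took different courses, as given below: THBS1 and F13A1 were higher at 72 h, TGFB1 was lower at 72 h, and SPARC was lower at 6 h. Sequences run 5′ to 3′ on the strand of the gene. Capitals mark matches to a GC box (GGGCGG, or CCGCCC on the other strand) or to an ETS motif (GGAAGT, or ACTTCC on the other strand).
THBS1, chr15:39580829-39581078, plus strand: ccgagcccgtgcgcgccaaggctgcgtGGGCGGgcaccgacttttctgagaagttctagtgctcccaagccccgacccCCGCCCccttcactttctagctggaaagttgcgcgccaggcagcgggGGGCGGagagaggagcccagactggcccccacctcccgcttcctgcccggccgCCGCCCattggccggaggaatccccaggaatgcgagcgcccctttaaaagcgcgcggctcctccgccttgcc
F13A1, chr6:6320663-6320912, minus strand: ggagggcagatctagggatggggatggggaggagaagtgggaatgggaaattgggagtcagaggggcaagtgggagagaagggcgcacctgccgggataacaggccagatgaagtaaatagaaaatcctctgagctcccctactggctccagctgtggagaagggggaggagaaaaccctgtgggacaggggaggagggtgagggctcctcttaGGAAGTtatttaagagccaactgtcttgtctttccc
TGFB1, chr19:41353923-41354172, minus strand: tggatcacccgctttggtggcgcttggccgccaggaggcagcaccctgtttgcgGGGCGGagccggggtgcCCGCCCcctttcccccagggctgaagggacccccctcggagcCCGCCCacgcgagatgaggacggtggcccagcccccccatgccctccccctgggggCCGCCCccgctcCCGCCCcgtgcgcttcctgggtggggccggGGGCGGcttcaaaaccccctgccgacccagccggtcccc
SPARC, chr5:151686916-151687165, minus strand: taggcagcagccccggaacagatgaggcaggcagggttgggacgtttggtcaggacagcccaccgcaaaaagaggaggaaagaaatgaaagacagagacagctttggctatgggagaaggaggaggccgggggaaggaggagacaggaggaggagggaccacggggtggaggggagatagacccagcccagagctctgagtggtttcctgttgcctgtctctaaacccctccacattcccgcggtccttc

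The 250 bases of THBS1 held 4 GC boxes and those of TGFB1 held 6, while F13A1 held 1 ETS match, 36 bases before the start. In SPARC no match was found to these motifs or to the others searched on both strands. Those were the letters AGATAA for GATA factors, TGANTCA for AP-1, TGTGGT for RUNX and TATAAA for the TATA box. G and C made up 76.8% of the bases in TGFB1, 69.6% in THBS1, 59.2% in SPARC and 55.6% in F13A1. Of 34788 distinct promoter sequences of the same length in the reference table, 42.6% held a GC box, 19.5% the ETS motif, 11.0% RUNX, 10.8% TATA, 9.21% GATA and 6.59% AP-1. A match describes the letters only. All 250 bases of THBS1, TGFB1 and SPARC lay inside the promoter site of the gene, and 57 bases of F13A1 did. Those 57 were the bases farthest from the start, so the ETS match of F13A1 lay outside the site. The SELP window held 1 ETS and 1 RUNX match, and no site covered it.

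Counts over all sites of the table ran from 12258890 in 6 h replicate 1 to 35548737 in 72 h replicate 2, and the 6 h libraries differed most in depth (12258890 and 33634403). The strongest 1% of sites took 21.7% and 20.5% of the counts at 0 h, 17.7% and 16.3% after 6 h, then 10.96% and 11.06% by 72 h. Accessible sites at the ends of 8 genes of the erythroid and megakaryocytic lineage, among them GATA1, TAL1 and the fetal globin genes, were present for all 8, with a summed level of 385 to 386 CPM at 0 h, 251 to 281 at 6 h and 160 to 173 at 72 h. Here CPM is the count in a site relative to the library's total after scaling by TMM (counts per 1e6). Sites at gene ends were lower in general. Over 19129 tested sites at protein-coding gene ends the median log2 fold change against 0 h was −0.37 at 6 h and −1.16 at 72 h. Of 5 lymphocyte genes 4 had a site (summed 21.8 to 33.9 CPM at 0 h, 21.6 to 23.8 at 6 h and 21.9 to 25.2 at 72 h), of 4 epithelial genes 3 did (16.2 to 23.4, 13.3 to 14.8 and 8.28 to 9.58), and of 4 fibroblast genes 2 did (28.3 to 30.5, 27.7 to 31.7 and 21.0 to 21.5). Of the epithelial and fibroblast genes, CDH1, DCN and LUM had no site. The part of these shifts in the results below was not tested.

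Around the 10 genes, accessibility rose more often than it fell. Of the 179 sites that passed the filter on low counts, 44 (24.6%) were higher after 6 h than before PMA and 17 (9.50%) lower, by edgeR's quasi-likelihood test at a Benjamini-Hochberg adjusted p under 0.05. Among all tested sites 23.4% were called higher and 16.8% lower, so the share of higher sites at 6 h was near that background. At 72 h against 0 h, 94 sites (52.5%) were higher and 31 (17.3%) lower, where the background was 38.2% and 29.2%. Between 6 and 72 h, 58 sites (32.4%) were higher at 72 h and 34 (19.0%) lower, with a background of 22.1% and 20.9%. Both comparisons against 0 h share the 0 h libraries. The median log2 fold change was 0.36 at 6 h and 0.96 at 72 h, beside 0.05 and 0.29 over all tested sites.

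The counts for 72 h against 6 h changed with single libraries. The 58 higher sites became 38 without 6 h replicate 1, 32 without 72 h replicate 1 and 30 without 72 h replicate 2. Without 6 h replicate 1 the share of higher calls was 52.8%, near the 51.5% over all sites. The 34 lower sites became 19 without 6 h replicate 2, 16 without 72 h replicate 1 and 17 without 72 h replicate 2. Scaling moved the split of the calls as well. Of the called sites 72.1% were higher at 6 h against 0 h, 75.2% at 72 h against 0 h and 63.0% at 72 h against 6 h, beside 58.2%, 56.7% and 51.4% over all sites. With total counts in place of TMM the shares were 84.5%, 86.3% and 84.2%, beside 67.3%, 71.1% and 73.6% over all sites. With TMM factors from sites that had a peak in all 6 libraries they were 88.6%, 93.9% and 92.9%, beside 78.6%, 83.9% and 88.2%. Loess offsets gave 61.2% at 72 h against 0 h, beside 48.0%. The median over all tested sites at 72 h against 0 h ranged with the scaling: it was 0.29 by TMM, 0.11 by RLE, 0.79 by total counts, −0.03 by loess offsets and 1.25 by the factors from shared peaks. At 6 h it ran from −0.11 under loess offsets to 0.37 under the factors from shared peaks. At 72 h the median of the 179 sites lay above that of all tested sites by 0.67 in each of these but loess, where the gap was 0.48. The settings other than loess apply a single factor per library to all sites, so the gap could hardly differ among them. Their likeness is therefore no check on the scaling.

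**Figure D1:**
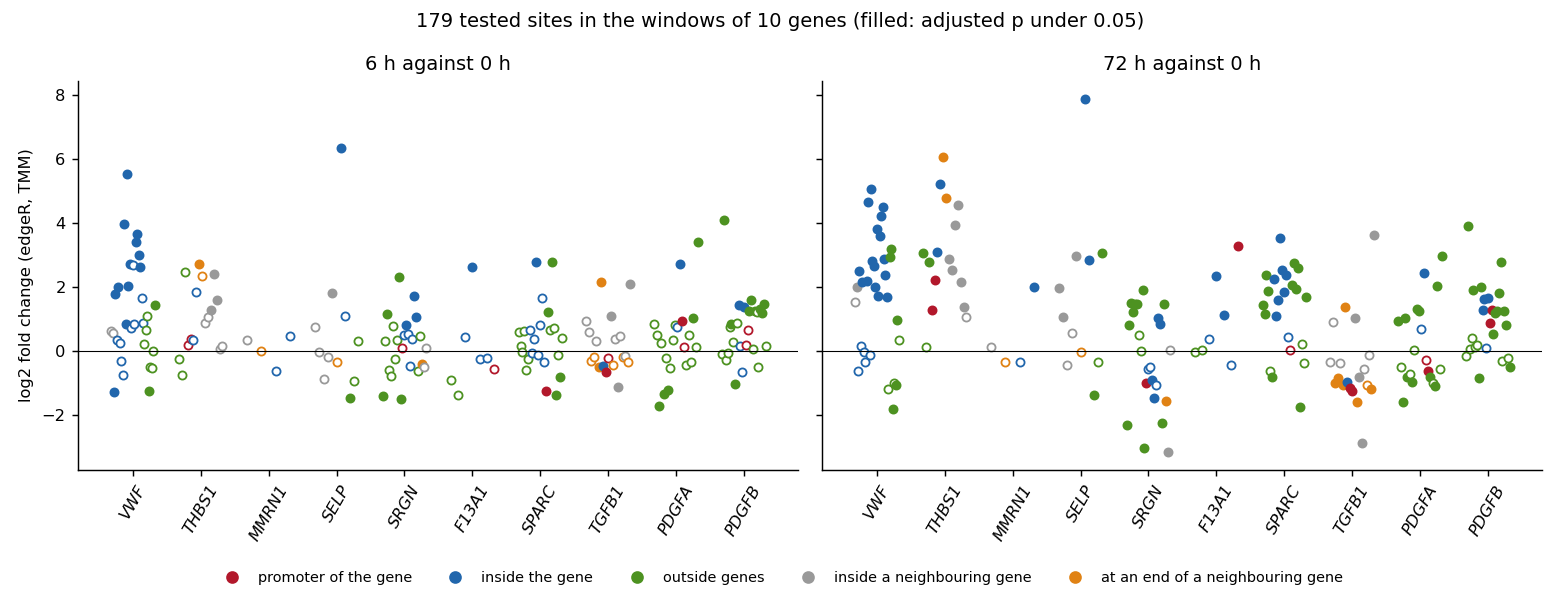
Log2 fold change (edgeR, TMM scaling) of each of the 179 tested sites at 6 h (left) and at 72 h (right) against 0 h, by gene. Colour gives the place of the site and filled points have an adjusted p under 0.05. At 72 h the filled points of VWF, THBS1, SPARC and PDGFB lie mostly above 0 (20, 14, 16 and 15 higher) and those of TGFB1 mostly below (10 lower).

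The calls against 0 h are given by place, with no test of the difference between places. Over all tested sites 23.4% were higher and 16.8% lower at 6 h, and 38.2% and 29.2% at 72 h. At protein-coding gene ends these were 9.96% and 36.2%, then 12.3% and 68.7%. The median at 72 h was −1.16 at gene ends and 0.50 at all other sites, so the background differs by place. Inside the 10 genes, 20 of 53 tested sites (37.7%) were higher at 6 h and 36 (67.9%) at 72 h, and 3 (5.66%) were lower at 72 h. By loess offsets 23 were higher and 9 lower at 72 h, 6 were lower by RLE and none by the factors from shared peaks. At 6 h 2 of them were lower, or 1 without 6 h replicate 1. Outside genes, 15 of 77 sites were higher and 10 lower at 6 h, and 38 were higher and 15 lower at 72 h. The factors from shared peaks gave 24 higher and 6 lower outside genes at 6 h, and at 72 h 4 lower (7 by total counts). Within neighbouring genes 12 of 26 (46.2%) were higher at 72 h and 3 (11.5%) lower. At the ends of neighbouring genes 3 of 12 (25%) were higher and 6 (50%) lower at 72 h. By the factors from shared peaks the 12 higher became 20 and the 6 lower became 2.

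A promoter site, within 1000 bases of an annotated start, was found for 7 genes, which together had 11 such sites. At 72 h against 0 h, 5 of the 11 were called higher and 4 lower. By loess offsets 3 were higher and 2 lower, and the lower ones were 2 by total counts and none by the factors from shared peaks. The nearest background at hand was sites at either end of protein-coding genes, and so not at starts alone, and it differed from that of all sites. Of 19129 tested sites whose distance to a protein-coding gene end was at most 1000 bases, 12.3% were higher at 72 h and 68.7% lower, with a median of −1.16 beside 0.03 for the 11 promoter sites. At 6 h 1 of the 11 was higher and 2 were lower, and the 2 became 1 without 0 h replicate 1, 0 h replicate 2 or 6 h replicate 1, and by total counts (2 higher) or the factors from shared peaks (4 higher). The gene-end background at 6 h was 9.96% higher and 36.2% lower. Between 6 and 72 h 4 promoter sites were higher and 4 lower (2 lower by loess offsets and none by the factors from shared peaks), beside 6.41% and 60.6% of gene-end sites. The 5 higher promoter sites at 72 h belonged to THBS1 with 2, PDGFB with 2 and F13A1 with 1. The 4 lower ones belonged to TGFB1 with 2, SRGN with 1 and PDGFA with 1.

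**Figure D2:**
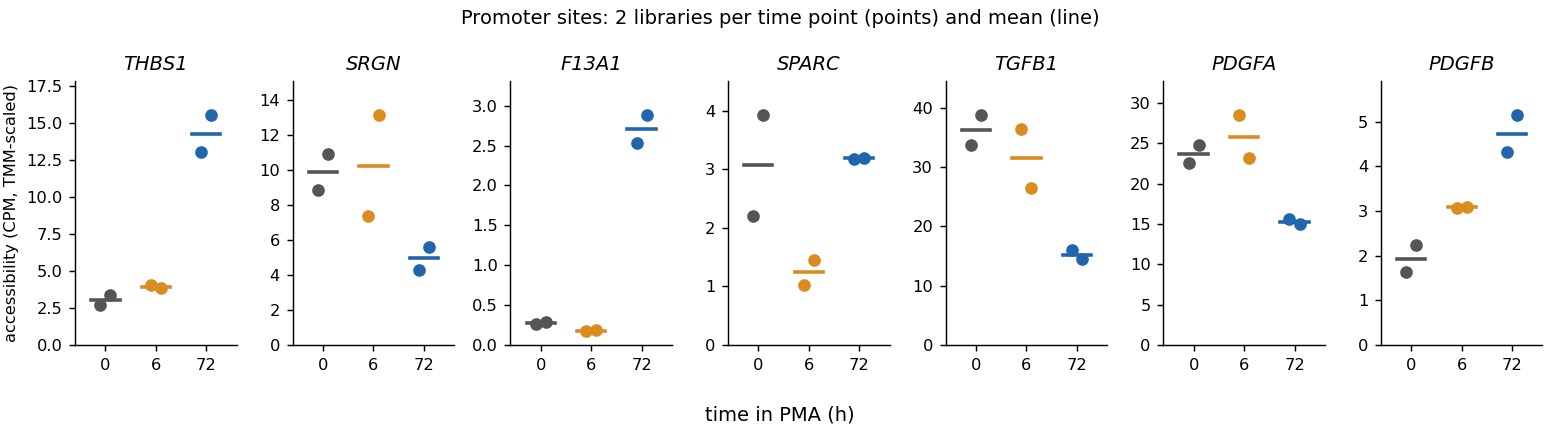
CPM of the strongest promoter site of each of the 7 genes that had one, over hours in PMA. Points are the 2 libraries of each time and lines their mean. THBS1, F13A1 and PDGFB had their highest values at 72 h, while SRGN, TGFB1 and PDGFA had their lowest there.

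VWF encodes von Willebrand factor, the large multimeric protein that tethers platelets to collagen. The gene lies on chromosome 12 from 5948877 to 6124670 on the minus strand. No site lay within 1000 bases of its start, and the nearest was 3.72 kb away. Inside the gene 11 of 21 tested sites were higher at 6 h and 1 lower, and at 72 h 16 were higher and none lower (2 lower by loess offsets). Their summed level was 21.4 and 20.3 CPM at 0 h, 49.7 and 72.4 at 6 h, then 74.7 and 77.0 at 72 h. Neither the 6 h nor the 72 h libraries overlapped those at 0 h, and the 2 libraries at 6 h lay far apart. For the 10 sites outside the gene, 1 was higher and 1 lower at 6 h, and 4 were higher and 2 lower at 72 h. The 2 lower sites were 1 without 0 h replicate 1 or 72 h replicate 1.

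The strongest rise in the VWF window was 58.7 kb into the gene, at chr12:6065662-6066280 (peak38830). This site had 0.065 and 0.191 CPM at 0 h, 4.69 and 7.97 after 6 h and 4.63 and 4.86 after 72 h. It was nearly closed at 0 h, on 1 and 4 counts, and open in all 4 treated libraries. On the log2 scale it rose by 5.52 (SE 0.48, edgeR adjusted p 1.1e-08) and, by 72 h, 5.07 (SE 0.49, 1.3e-08). These became 6.56 and 6.09 without 0 h replicate 2. A pair of stronger sites, named after their values were seen, lay nearer the start. At chr12:6093029-6093888, 31.2 kb into the gene, the libraries had 0.845 and 0.765 CPM at 0 h, 7.67 and 12.1 at 6 h, then 14.0 and 16.4 at 72 h. At chr12:6088804-6089509, 35.5 kb into the gene, they had 0.975 and 0.717 CPM, 5.46 and 11.7, and 9.01 and 11.1. Both were higher in every treated library than in either 0 h library, with log2 fold changes of 3.65 and 3.41 at 6 h and of 4.24 and 3.59 at 72 h (edgeR adjusted p from 4.4e-10 to 1.8e-07). The second was 2.65 at 6 h without 6 h replicate 2.

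The distal VWF site with the highest mean lay 43.1 kb upstream, at chr12:6167138-6168400 (peak38850). It had 16.8 and 14.0 CPM at 0 h, 37.3 and 45.1 after 6 h and 18.8 and 20.4 after 72 h. It was highest at 6 h, 1.43 above 0 h on the log2 scale (SE 0.17, edgeR adjusted p 7.4e-07). At 72 h its value was 0.35 above 0 h (SE 0.17, edgeR adjusted p 0.068). That value passed the threshold without 0 h replicate 1 (0.47, edgeR adjusted p 0.038) or when the replicate number was added as a block (edgeR adjusted p 0.036), and it was 0.85 by total counts, 1.28 by loess offsets and 1.31 by the factors from shared peaks, all called. The largest fall at 72 h was 18.35 kb upstream, at chr12:6142624-6143424 (peak38846), with 4.03 and 2.77 CPM at 0 h, 1.11 and 1.61 at 6 h, then 0.958 and 0.944 at 72 h. It fell by 1.25 on the log2 scale at 6 h (SE 0.37, edgeR adjusted p 0.0093) and by 1.82 at 72 h (SE 0.35, edgeR adjusted p 0.00012). The 6 h call was lost without 0 h replicate 1 (−1.02, edgeR adjusted p 0.063) and under the factors from shared peaks (−0.93).

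THBS1 encodes thrombospondin-1, an adhesive glycoprotein of alpha granules that can activate latent TGF-beta. It lies on chromosome 15 from 39581079 to 39599466 on the plus strand. Most of its rise came after 6 h: 4 of 16 tested sites were higher at 6 h and 14 at 72 h, none was lower, and the median log2 fold change at 72 h was 2.83. The summed level of the window was 8.77 and 10.5 CPM at 0 h, 16.4 and 15.7 after 6 h and 62.3 and 65.9 after 72 h. The 3 times did not overlap, and the mean at 72 h was 6.64 times that at 0 h.

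The promoter site of THBS1, at chr15:39580399-39581414 (peak56226), covers all the bases printed above and also lies in an uncharacterised gene, LOC124903470. It had 2.66 and 3.39 CPM at 0 h, 4.01 and 3.86 at 6 h, then 13.02 and 15.48 at 72 h. The 72 h libraries stood well above all others. The log2 fold change was 0.36 at 6 h (SE 0.26, edgeR adjusted p 0.29) and 2.22 at 72 h (SE 0.24, edgeR adjusted p 6.8e-08), which is 4.66-fold, and the 72 h libraries were also above the 6 h ones by 1.86 (edgeR adjusted p 3.2e-06). Under the factors from shared peaks the 6 h value was 0.68 and passed the threshold.

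Among distal THBS1 sites away from the ends of other genes, and with a mean of at least 1 CPM, the largest rise at 72 h was inside the gene, 11.8 kb after the start, at chr15:39592649-39593073 (peak56228). The libraries held 1 and 2 counts at 0 h, 1 and 13 after 6 h and 112 and 154 after 72 h. The site was near 0 at 0 h and stood far higher in both 72 h libraries. The ratio of 72 h to 0 h was 39.7, with an exact 95% interval of 13.4 to 194 that covers counting error only. The ratio of 6 h to 0 h was 3.91 (1.09 to 21.2), and at 6 h the site was not called (edgeR adjusted p 0.10) but was without 6 h replicate 1 (0.043). A site that also lies near an FSIP1 end, at chr15:39597670-39598274 (peak56229), rose more and is named after its values were seen. It held 0 and 2 counts at 0 h, 7 and 9 at 6 h, then 151 and 175 at 72 h. The ratio to 0 h was 6.70 at 6 h (exact 95% interval 1.58 to 60.1) and 73.0 at 72 h (20.1 to 605). The 6 h call (edgeR adjusted p 0.023) was lost without 0 h replicate 1 (0.13), without 6 h replicate 1 (0.085) and with DESeq2 (0.059).

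Downstream, the THBS1 window runs into FSIP1, a neighbouring gene expressed mainly in testis. Of 9 tested sites in FSIP1, 4 were higher at 6 h (2 without 6 h replicate 1) and 8 at 72 h. Of 7 sites outside FSIP1, none was called at 6 h (2 without 6 h replicate 1) and 6 were higher at 72 h. The strongest distal site was in FSIP1, 43.9 kb from the THBS1 start at chr15:39624624-39625278 (peak56234), with 0.585 and 0.478 CPM at 0 h, 1.79 and 1.01 at 6 h, then 8.26 and 7.88 at 72 h. It rose by 1.29 on the log2 scale at 6 h (SE 0.44, edgeR adjusted p 0.022) and by 3.93 at 72 h (SE 0.36, 7.0e-09). The 6 h call was lost without 0 h replicate 2 (1.13), without 6 h replicate 1 (0.94), under loess offsets (0.94) and with DESeq2 (1.18). Away from gene ends, the largest change at 6 h was at chr15:39629268-39629879 (peak56235), 48.5 kb from the start. This site had 0.130 and 0.382 CPM at 0 h, 1.36 and 1.52 after 6 h and 6.11 and 6.91 after 72 h. It rose by 2.40 (SE 0.49, edgeR adjusted p 0.00045) and by 4.55 (SE 0.41, 6.4e-09), or by 3.45 and 5.60 without 0 h replicate 2.

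MMRN1 encodes multimerin-1, a carrier of factor V in alpha granules. It lies on chromosome 4 from 89879511 to 89954614, with 2 annotated starts, and neither had a site within 1000 bases. The 4 sites of its window summed to 7.99 and 6.12 CPM at 0 h, 5.88 and 6.46 at 6 h, then 6.45 and 6.54 at 72 h, so the times overlapped. The strongest distal site, inside the gene at chr4:89889167-89889781 (peak126936), had 4.03 and 2.06 CPM at 0 h, 2.30 and 1.71 after 6 h and 2.07 and 2.57 after 72 h. Its log2 fold changes were −0.62 (SE 0.37, edgeR adjusted p 0.18) and −0.36 (SE 0.34, 0.35). The 6 h value was called without 0 h replicate 2 (−1.05) and under loess offsets (−0.98), and the 72 h value under loess offsets (−0.90).

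One MMRN1 site was called, at 72 h, and is named here after its values were seen. At chr4:89899181-89899591, 4.53 kb after the second start, the libraries had 0.195 and 0.287 CPM at 0 h, 0.512 and 0.253 at 6 h, then 1.06 and 0.944 at 72 h. Only the 72 h libraries stood apart, 2.0 above 0 h on the log2 scale (SE 0.59, edgeR adjusted p 0.0049). It was not called under loess offsets (1.25) or with DESeq2 (1.85).

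SPARC encodes osteonectin, a collagen-binding protein of alpha granules, and lies on chromosome 5 from 151661096 to 151686915 on the minus strand. Like THBS1, its window was higher mainly at 72 h, with 3 of 23 sites higher and 3 lower at 6 h, and 16 higher and 2 lower at 72 h. The 3 lower sites at 6 h were 1 without 0 h replicate 2, and the 2 lower at 72 h were 1 without 0 h replicate 2 or 72 h replicate 2. Its sites summed to 40.0 and 44.2 CPM at 0 h, 40.1 and 42.0 after 6 h and 71.2 and 76.4 after 72 h. Values at 0 and 6 h overlapped, and those at 72 h were 1.75 times the 0 h mean. In the gene 7 of 8 sites were higher at 72 h and none lower.

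The promoter site of SPARC took another course. At chr5:151686621-151687293 (peak137434) it had 2.21 and 3.92 CPM at 0 h, 1.02 and 1.46 at 6 h, then 3.18 and 3.19 at 72 h. It was lowest at 6 h, and its 72 h values lay between those of the 0 h libraries. On the log2 scale the value was −1.26 at 6 h (SE 0.36, edgeR adjusted p 0.0079) and 0.03 at 72 h (SE 0.31, edgeR adjusted p 0.93), and 72 h exceeded 6 h by 1.29 (edgeR adjusted p 0.0045). Without 0 h replicate 2 the 6 h value was −0.76 (edgeR adjusted p 0.178), and under the factors from shared peaks the 72 h value was 1.00 and called.

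The largest rise around SPARC was inside the gene, 14.7 kb from the start at chr5:151671885-151672560 (peak137429). It had 0.520 and 0.478 CPM at 0 h, 2.47 and 4.08 after 6 h and 5.49 and 6.18 after 72 h. It rose by 2.77 on the log2 scale at 6 h (SE 0.39, edgeR adjusted p 8.0e-06) and by 3.54 at 72 h (SE 0.37, 4.4e-08). The largest change at 6 h lay 20.2 kb upstream, at chr5:151706856-151707375 (peak137437), which had 0.455 and 0.239 CPM at 0 h, 2.30 and 2.34 at 6 h, then 1.19 and 1.42 at 72 h. It rose by 2.78 (SE 0.49, edgeR adjusted p 9.3e-05) and by 1.95 (SE 0.49, 0.0014). Close to it, 22.5 kb upstream at chr5:151709084-151709750 (peak137439), a site went the other way, with 7.67 and 6.69 CPM at 0 h, 2.73 and 2.72 after 6 h and 1.99 and 2.24 after 72 h. It fell by 1.39 (SE 0.27, edgeR adjusted p 0.00031) and by 1.76 (SE 0.26, 4.8e-06).

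The distal SPARC site with the highest mean, 27.8 kb from the start beyond the gene's far end at chr5:151658776-151659458 (peak137425), had 5.07 and 6.74 CPM at 0 h, 5.12 and 4.90 at 6 h, then 3.70 and 3.02 at 72 h. Values at 0 and 6 h overlapped, and both 72 h libraries were lower. The log2 fold change was −0.25 at 6 h (SE 0.26, edgeR adjusted p 0.47) and −0.82 at 72 h (SE 0.25, 0.0072). The 72 h call was lost without 0 h replicate 2 (−0.60), without 72 h replicate 2 (−0.68) and under total counts (−0.32), and the sign turned under the factors from shared peaks (0.14).

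SELP encodes P-selectin, the receptor of the alpha granule membrane that moves to the surface of activated platelets and binds leukocytes. It lies on chromosome 1 from 169588849 to 169630124 on the minus strand. No site lay at its promoter, and the nearest was 31.9 kb away. Of 11 sites, 2 were higher and 1 lower at 6 h, and 6 were higher and 1 lower at 72 h. The 1 lower site at 6 h became 2 without 0 h replicate 1. The sum over the window was 22.0 and 20.9 CPM at 0 h, 19.5 and 17.3 after 6 h and 37.2 and 39.2 after 72 h, so that 72 h stood above the other times.

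Among distal SELP sites with a mean of at least 1 CPM, the largest rise at 72 h lay 46.0 kb upstream, at chr1:169675763-169676537 (peak14198). It had 1.17 and 0.622 CPM at 0 h, 0.938 and 1.14 at 6 h, then 6.37 and 8.24 at 72 h. The 0 and 6 h libraries overlapped and the 72 h libraries were far above them, with log2 fold changes of 0.30 (SE 0.42, edgeR adjusted p 0.60) and 3.07 (SE 0.34, 1.0e-07). A fall lay 31.9 kb upstream, at chr1:169661570-169662429 (peak14196), which had 7.86 and 4.59 CPM at 0 h, 3.07 and 1.68 after 6 h and 2.07 and 2.62 after 72 h. It fell by 1.47 on the log2 scale at 6 h (SE 0.34, edgeR adjusted p 0.0015) and by 1.39 at 72 h (SE 0.31, 0.00054). Under the factors from shared peaks the 72 h value was −0.44 and not called.

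On its other side the SELP window reaches into F5, the gene of coagulation factor V, itself an alpha granule protein. The strongest distal site, at chr1:169546023-169546860 (peak14189), had 4.61 and 5.31 CPM at 0 h, 4.43 and 5.16 at 6 h, then 10.3 and 10.4 at 72 h. It did not stand apart at 6 h (−0.04, SE 0.24, edgeR adjusted p 0.92) and rose by 1.05 at 72 h (SE 0.23, 0.00035). Among sites of at least 1 CPM, the largest change at 6 h was at chr1:169584602-169585215 (peak14192), with 0.455 and 0.908 CPM at 0 h, 3.33 and 1.96 after 6 h and 6.01 and 5.19 after 72 h. It rose by 1.82 (SE 0.41, edgeR adjusted p 0.0012) and by 2.98 (SE 0.37, 4.8e-07), or by 2.44 and 3.61 without 0 h replicate 2. Inside SELP itself, a site at chr1:169590822-169591065 (peak14194), singled out after its values were seen, had 0 counts in both 0 h libraries, 8 and 7 at 6 h, then 35 and 55 at 72 h. Against a floor of 3 counts over the 0 h group the 6 h level was 4.19-fold higher and the 72 h level 13.4-fold higher. The floor makes these values lower bounds, which allow for counting error at 0 h only, as the 6 and 72 h counts were taken as they stand.

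SRGN encodes serglycin, the proteoglycan that holds granule cargo in many blood cells. It lies on chromosome 10 from 69087603 to 69104811 on the plus strand. Its window went both ways: 5 of 23 sites were higher and 3 lower at 6 h (1 lower without 6 h replicate 2), and 9 were higher and 8 lower at 72 h. The window summed to 184 CPM in both 0 h libraries, 175 and 194 after 6 h and 122 and 121 after 72 h. A single site at the end of the neighbouring VPS26A gene made up 114 CPM of the 0 h mean and 38.4 of the 72 h mean. Upstream of SRGN, 6 of 10 sites were higher at 72 h (3 by loess offsets or DESeq2) and 2 lower, and their sum went from 31.8 and 33.2 CPM at 0 h to 41.8 and 55.3 at 6 h and 53.6 and 52.5 at 72 h. Of the 8 sites at the promoter and in the gene, 3 were higher at 6 h and none lower. At 72 h 3 of these were lower and 2 higher, and the 2 became 1 without 0 h replicate 1, 0 h replicate 2 or 72 h replicate 1. The 3 lower sites were 6 by loess offsets, 5 by RLE, 1 by total counts and none by the factors from shared peaks.

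The promoter site of SRGN, at chr10:69087750-69088485 (peak24564), had 8.84 and 10.9 CPM at 0 h, 7.33 and 13.1 at 6 h, then 4.27 and 5.59 at 72 h. The 6 h libraries lay on either side of those at 0 h, and both 72 h libraries lay below. Its log2 fold change was 0.08 at 6 h (SE 0.25, edgeR adjusted p 0.82) and −1.003 at 72 h (SE 0.26, 0.0016). The 72 h call was lost under total counts (−0.51) and under the factors from shared peaks (−0.04).

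Upstream of SRGN, neighbouring sites took opposite courses. The site 21.4 kb upstream, at chr10:69065759-69066557 (peak24562), had 2.53 and 3.01 CPM at 0 h, 12.4 and 15.2 after 6 h and 11.5 and 9.42 after 72 h. It rose 4.98-fold at 6 h (log2 2.32, SE 0.24, edgeR adjusted p 1.4e-07) and was 3.74-fold higher at 72 h (1.9, SE 0.24, 5.1e-07). The site 17.9 kb upstream, at chr10:69069462-69069937 (peak24563), had 2.86 and 2.53 CPM at 0 h, 0.682 and 1.11 at 6 h, then 0.466 and 0.189 at 72 h. It fell by 1.5 on the log2 scale at 6 h (SE 0.44, edgeR adjusted p 0.0091) and by 3.04 at 72 h (SE 0.46, 6.0e-06), or by 3.80 without 72 h replicate 1. The strongest distal site, 25.95 kb upstream at chr10:69061222-69062092 (peak24561), had 9.49 and 11.4 CPM, 10.7 and 15.5, and 10.3 and 10.4 at the 3 times, which overlapped. Its log2 fold changes were 0.35 (SE 0.21, edgeR adjusted p 0.21) and −0.02 (SE 0.21, 0.95). Under the factors from shared peaks they were 0.67 and 0.95 and both were called, and under total counts the 72 h value was 0.48 and called.

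**Figure D3:**
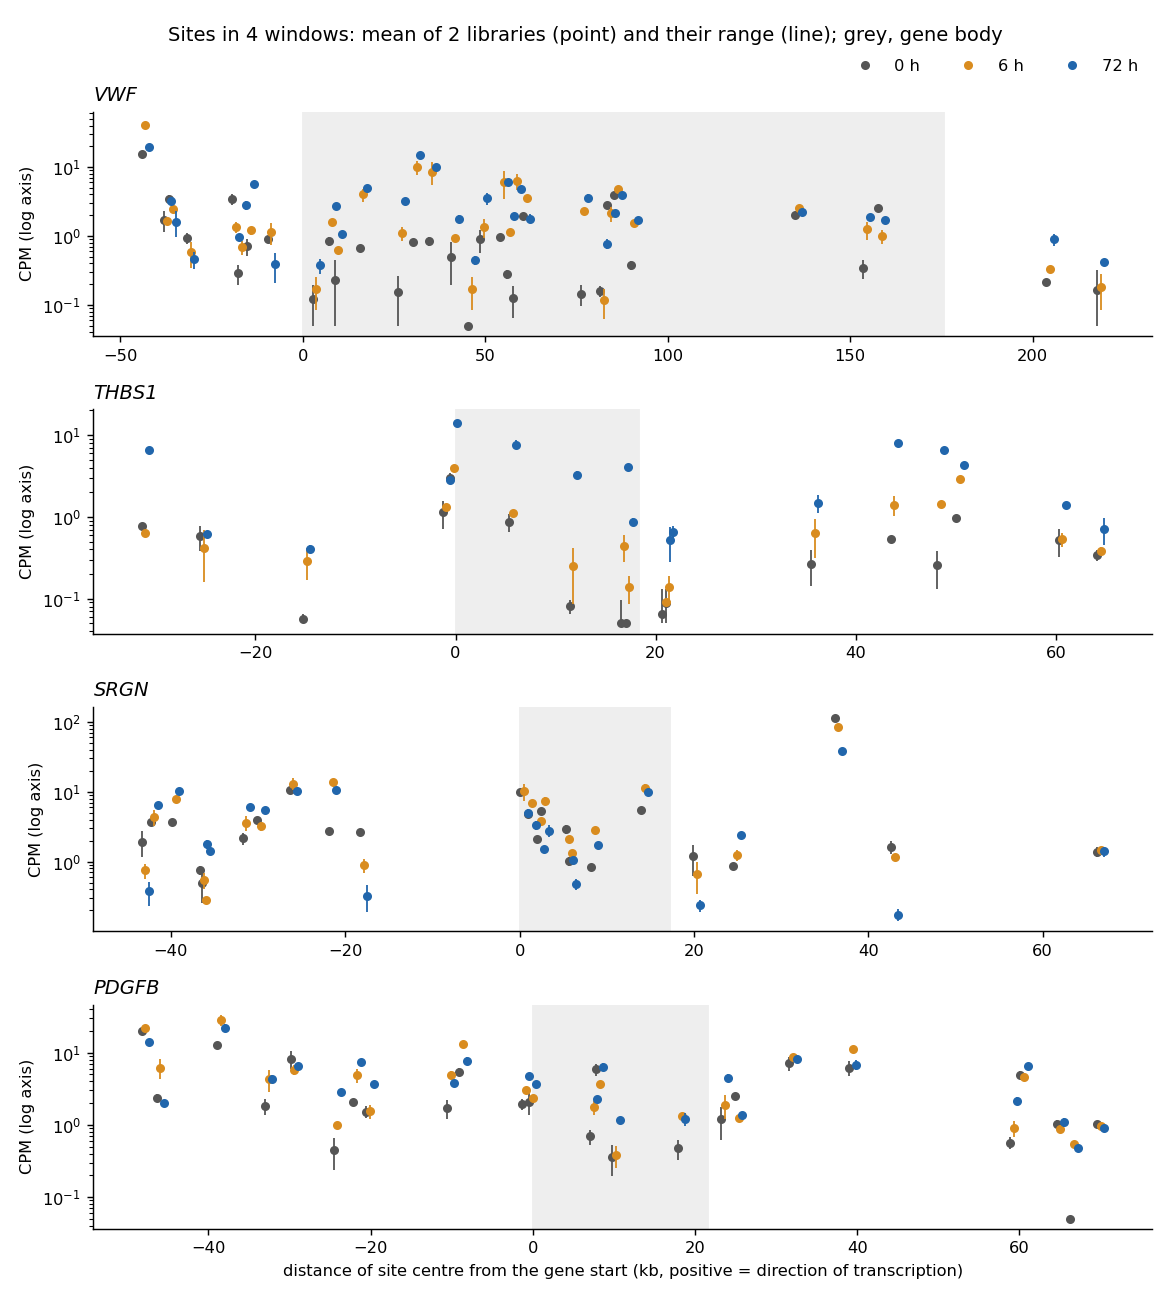
CPM (log axis) of every site in the windows of VWF, THBS1, SRGN and PDGFB, against the distance of the site's centre from the gene start in kb, with grey marking the gene. Points are means of 2 libraries, lines join the libraries, times are set slightly apart along the axis, and values under 0.05 CPM are drawn at 0.05. Most sites inside VWF and THBS1 are higher at 72 h than at 0 h, and upstream of SRGN a rising site (21.4 kb) stands beside a falling one (17.9 kb).

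F13A1 encodes the A subunit of factor XIII, the transglutaminase that cross-links fibrin and is stored in the platelet cytoplasm. It lies on chromosome 6 from 6144084 to 6320662 on the minus strand. Of its 7 sites, 1 was higher at 6 h and 3 at 72 h, and none was lower. One was lower at 6 h without 6 h replicate 1, by RLE and by loess offsets, and 1 at 72 h by loess offsets. The promoter site, at chr6:6320856-6321489 (peak140155), had 0.260 and 0.287 CPM at 0 h, 0.171 and 0.190 after 6 h and 2.54 and 2.88 after 72 h, on 4 and 6, 2 and 6, and 98 and 122 counts. It was nearly closed until 6 h and open in both 72 h libraries. The log2 fold change was −0.57 at 6 h (SE 0.71, edgeR adjusted p 0.55) and 3.28 at 72 h (SE 0.47, 3.3e-06), a 9.70-fold rise.

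Deep inside F13A1, 102 kb from the start, lay the site with the highest mean of the window, at chr6:6218203-6219287 (peak140152). It had 1.49 and 2.34 CPM at 0 h, 11.3 and 12.8 at 6 h, then 8.72 and 11.1 at 72 h. Unlike the promoter site, it was open in both 6 h libraries. On the log2 scale the value was 2.63 at 6 h (SE 0.27, edgeR adjusted p 1.0e-07) and 2.34 at 72 h (SE 0.27, 1.2e-07), or 6.19-fold and 5.07-fold.

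TGFB1 encodes transforming growth factor beta 1, which platelets hold in latent form. It lies on chromosome 19 from 41330323 to 41353922 on the minus strand, among the genes B9D2, TMEM91, EXOSC5, BCKDHA, CCDC97 and HNRNPUL1. At 72 h 10 of its 19 sites (52.6%) were lower and 3 (15.8%) higher, beside 29.2% and 38.2% over all tested sites. At 6 h 3 were higher and 4 lower, and the 4 became 2 without 0 h replicate 1 or 0 h replicate 2 and 1 without 6 h replicate 1. Under the factors from shared peaks the 72 h counts were 6 higher and 2 lower, and under loess offsets 2 higher and 6 lower. The window summed to 271 and 264 CPM at 0 h, 265 and 274 after 6 h and 161 and 164 after 72 h. The 7 sites at ends of neighbouring genes held 140 CPM of the 0 h mean and 83.4 of the 72 h mean. Of these 7, 5 were lower at 72 h, beside 68.7% of all gene-end sites. The 5 were 3 by loess offsets or total counts and 1 by the factors from shared peaks. Both promoter sites were lower too. Of the 10 distal sites 3 were lower, near the 29.2% over all sites, and 2 higher. By the factors from shared peaks 1 distal site was lower and 5 higher.

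The promoter site of TGFB1, at chr19:41353428-41354396 (peak83898), is also near an end of B9D2. It had 33.7 and 38.7 CPM at 0 h, 36.5 and 26.5 at 6 h, then 15.9 and 14.4 at 72 h. The 6 h libraries overlapped those at 0 h, and both 72 h libraries were below all others. The log2 fold change was −0.22 at 6 h (SE 0.17, edgeR adjusted p 0.33) and −1.26 at 72 h (SE 0.17, 1.6e-06), which is 2.39-fold lower and near the gene-end median of −1.16. The 72 h value was not called under loess offsets (−0.25) or under the factors from shared peaks (−0.29). A second TGFB1 promoter site (peak83897), named after its values were seen, was also lower at 6 h, by 0.65 (edgeR adjusted p 0.026). That call was lost under total counts (−0.52) and the factors from shared peaks (−0.33), and the value was −0.48 without 6 h replicate 1. At 72 h it was −0.21 and not called under the factors from shared peaks. The strongest distal site, 2.76 kb into the gene at chr19:41350558-41351770 (peak83896), had 31.6 and 34.0 CPM at 0 h, 20.2 and 26.4 after 6 h and 16.6 and 16.99 after 72 h. It fell by 0.48 on the log2 scale at 6 h (SE 0.17, edgeR adjusted p 0.025) and by 0.96 at 72 h (SE 0.17, 3.0e-05). The 6 h call was lost without 0 h replicate 2 (−0.42) or 6 h replicate 1 (−0.31), under total counts (−0.35), loess offsets (−0.30) and the factors from shared peaks (−0.16), and the 72 h call under the last of these (−0.0017) and loess offsets (−0.03).

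The farthest upstream site of the TGFB1 window rose. It lay 47.8 kb upstream inside BCKDHA, at chr19:41401378-41402053 (peak83907), with 0.715 and 0.861 CPM at 0 h, 2.30 and 4.21 at 6 h, then 9.27 and 10.4 at 72 h. The 3 times did not overlap. It rose by 2.10 on the log2 scale at 6 h (SE 0.36, edgeR adjusted p 7.1e-05), or 1.47 without 6 h replicate 2, and by 3.62 at 72 h (SE 0.33, 7.4e-09). The largest fall was in TMEM91, 24.6 kb upstream at chr19:41378271-41378744 (peak83902), with 1.95 and 2.44 CPM at 0 h, 1.19 and 0.886 after 6 h and 0.414 and 0.189 after 72 h. It fell by 2.87 at 72 h (SE 0.47, edgeR adjusted p 1.5e-05), or 3.52 without 72 h replicate 1. At 6 h the value was −1.14 (SE 0.44, edgeR adjusted p 0.045). That call was lost without 0 h replicate 2 (−0.96), 6 h replicate 2 (−0.94) or 72 h replicate 1 (−1.18), under total counts (−0.997) and the factors from shared peaks (−0.81), and with DESeq2 (−1.26).

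PDGFA and PDGFB encode the A and B chains of platelet-derived growth factor, which drives the growth of fibroblasts and smooth muscle cells. PDGFA lies on chromosome 7 from 497258 to 520700 on the minus strand, with 4 annotated starts. Of its 20 sites, 4 were higher and 3 lower at 6 h, and 7 were higher and 6 lower at 72 h, where the 7 became 4 without 0 h replicate 2 or 72 h replicate 2. These shares, 20% higher and 15% lower at 6 h and 35% and 30% at 72 h, were near those over all sites. The latter were 23.4% and 16.8%, then 38.2% and 29.2%. The promoter site with the highest mean, at chr7:519023-520648 (peak150716), had 22.6 and 24.9 CPM at 0 h, 28.5 and 23.2 at 6 h, then 15.6 and 15.0 at 72 h. Libraries at 0 and 6 h overlapped and those at 72 h were lower, with log2 fold changes of 0.12 (SE 0.17, edgeR adjusted p 0.62) and −0.63 (SE 0.17, 0.0023). The 72 h value was −0.13 and not called under total counts, and its sign turned under loess offsets (0.23) and the factors from shared peaks (0.33), which at 6 h gave 0.43 and a call. A second promoter site, at chr7:516979-517495 and named after its values were seen, had 4.29 and 4.06 CPM at 0 h, 8.10 and 8.01 after 6 h and 3.75 and 3.14 after 72 h. It was highest at 6 h, by 0.95 (SE 0.25, edgeR adjusted p 0.0043), and had −0.28 at 72 h (SE 0.25, 0.33), where the sign turned under the factors from shared peaks (0.69, called).

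The strongest distal site of PDGFA was also the one with the largest rise at both times. It lay 22.6 kb upstream of the nearest start, outside genes, at chr7:542770-543793 (peak150722), with 3.57 and 3.97 CPM at 0 h, 36.0 and 43.5 at 6 h, then 26.4 and 33.3 at 72 h. All 4 treated libraries were far above both 0 h libraries. The site was 10.5-fold higher at 6 h (log2 3.40, SE 0.20, edgeR adjusted p 7.6e-11) and 7.88-fold higher at 72 h (2.98, SE 0.20, 1.9e-10). The largest fall was 58.5 kb beyond the start, at chr7:459604-460001 (peak150705), with 2.86 and 3.54 CPM at 0 h, 0.853 and 1.04 after 6 h and 1.09 and 1.01 after 72 h. It fell by 1.72 at 6 h (SE 0.38, edgeR adjusted p 0.00095) and by 1.61 at 72 h (SE 0.35, 0.00033), the latter not called under the factors from shared peaks (−0.65).

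PDGFB lies on chromosome 22 from 39223359 to 39244982 on the minus strand. Its rise was already present at 6 h: 10 of 25 sites were higher and 1 lower at 6 h, and 15 were higher and 2 lower at 72 h. The 10 fell to 4 without 6 h replicate 2, the deeper 6 h library, and the 1 lower site became 2 without 0 h replicate 1. The 2 lower sites at 72 h were 1 without 0 h replicate 1 or 72 h replicate 2, and none without 72 h replicate 1. Among the 10 sites upstream of the promoter, 6 were higher at 6 h (3 without 6 h replicate 2) and 7 at 72 h, where 1 was lower (2 without 0 h replicate 2), with summed levels of 60.4 and 52.1 CPM at 0 h, 83.3 and 101 at 6 h, then 71.3 and 78.0 at 72 h.

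The PDGFB promoter site with the highest mean, at chr22:39245540-39246168 (peak110958), had 1.62 and 2.25 CPM at 0 h, 3.07 and 3.1 after 6 h and 4.32 and 5.14 after 72 h. The 3 times did not overlap. Its log2 fold change was 0.66 at 6 h (SE 0.31, edgeR adjusted p 0.10) and 1.27 at 72 h (SE 0.29, 0.00064), and the 6 h value was called under total counts (0.79) and the factors from shared peaks (0.98). A second promoter site, at chr22:39244708-39245276 and named after its values were seen, had 2.73 and 1.39 CPM at 0 h, 2.47 and 2.18 at 6 h, then 3.60 and 3.82 at 72 h. It was 0.88 above 0 h at 72 h (SE 0.33, edgeR adjusted p 0.021). This call was lost without 0 h replicate 2 (0.44), 72 h replicate 1 (0.91) or 72 h replicate 2 (0.83), under RLE (0.70) and loess offsets (0.38), and with DESeq2 (0.69).

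Upstream of PDGFB the strongest site, 38.45 kb away at chr22:39282802-39284068 (peak110966), had 13.8 and 11.8 CPM at 0 h, 23.4 and 33.6 after 6 h and 19.5 and 24.8 after 72 h. Both treated groups lay above 0 h, by 1.17 on the log2 scale (SE 0.20, edgeR adjusted p 5.8e-05) and by 0.80 (SE 0.19, 0.0010). At 10.1 kb upstream, chr22:39254753-39255454 (peak110960) had 2.21 and 1.20 CPM at 0 h, 4.26 and 5.60 at 6 h, then 4.06 and 3.49 at 72 h. Among sites with a mean of at least 1 CPM this was the largest change at 6 h, 1.59 (SE 0.33, edgeR adjusted p 0.00052), and 1.18 at 72 h (SE 0.32, 0.0027), a call lost without 0 h replicate 2 (0.77).

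Among sites of at least 1 CPM, the largest rise at 72 h lay 24.1 kb upstream of PDGFB, at chr22:39268913-39269243 (peak110963), with 0.650 and 0.239 CPM at 0 h, 1.02 and 0.949 after 6 h and 2.98 and 2.81 after 72 h. It was 2.77 above 0 h at 72 h (SE 0.45, edgeR adjusted p 1.5e-05), or 3.56 without 0 h replicate 1 and 2.14 without 0 h replicate 2. At 6 h the value was 1.21 (SE 0.52, edgeR adjusted p 0.069), which was called without 0 h replicate 1 (1.95), under total counts (1.34) and under the factors from shared peaks (1.52). The largest fall, 25.4 kb beyond the start at chr22:39219318-39219888 (peak110951), had 2.47 and 2.49 CPM at 0 h, 1.36 and 1.11 at 6 h, then 1.53 and 1.20 at 72 h. It fell by 1.04 at 6 h (SE 0.38, edgeR adjusted p 0.033) and by 0.86 at 72 h (SE 0.35, 0.033). The 6 h call was lost without 0 h replicate 2 (−1.03) or 6 h replicate 2 (−0.91), under total counts (−0.90) and the factors from shared peaks (−0.72). The 72 h call was lost without 0 h replicate 1 (−0.88), 0 h replicate 2 (−0.86), 72 h replicate 1 (−1.05) or 72 h replicate 2 (−0.70) and under total counts (−0.36), and the sign turned under the factors from shared peaks (0.10).

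Added over each window, the levels of the 10 genes took different courses. VWF, F13A1, PDGFB and PDGFA were above 0 h at 6 and at 72 h without overlap between libraries. Their means at 72 h were 2.33, 2.64, 1.37 and 1.1 times the 0 h mean. In PDGFA a single site, peak150722, gained more CPM than the whole window at 6 and at 72 h. The other sites of that window together were lower than at 0 h at both times. In F13A1 a single site, peak140152, gained more than the window at 6 h and made up most of its gain at 72 h. THBS1 was 1.66 times the 0 h mean at 6 h and 6.64 times at 72 h, also without overlap. SELP was below 0 h at 6 h (0.858) and above it at 72 h (1.78), and SPARC overlapped 0 h at 6 h (0.976) and was above it at 72 h (1.75). SRGN and TGFB1 overlapped 0 h at 6 h (1.00 and 1.01) and were lower at 72 h (0.658 and 0.608), and in both windows the ends of neighbouring genes held a large part of the sum. MMRN1 overlapped 0 h at both times (0.874 and 0.920). With 2 libraries against 2, the smallest p of an exact permutation test is 0.333, so these sums carry no test, and all of them move with the scaling between libraries.

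**Figure D4:**
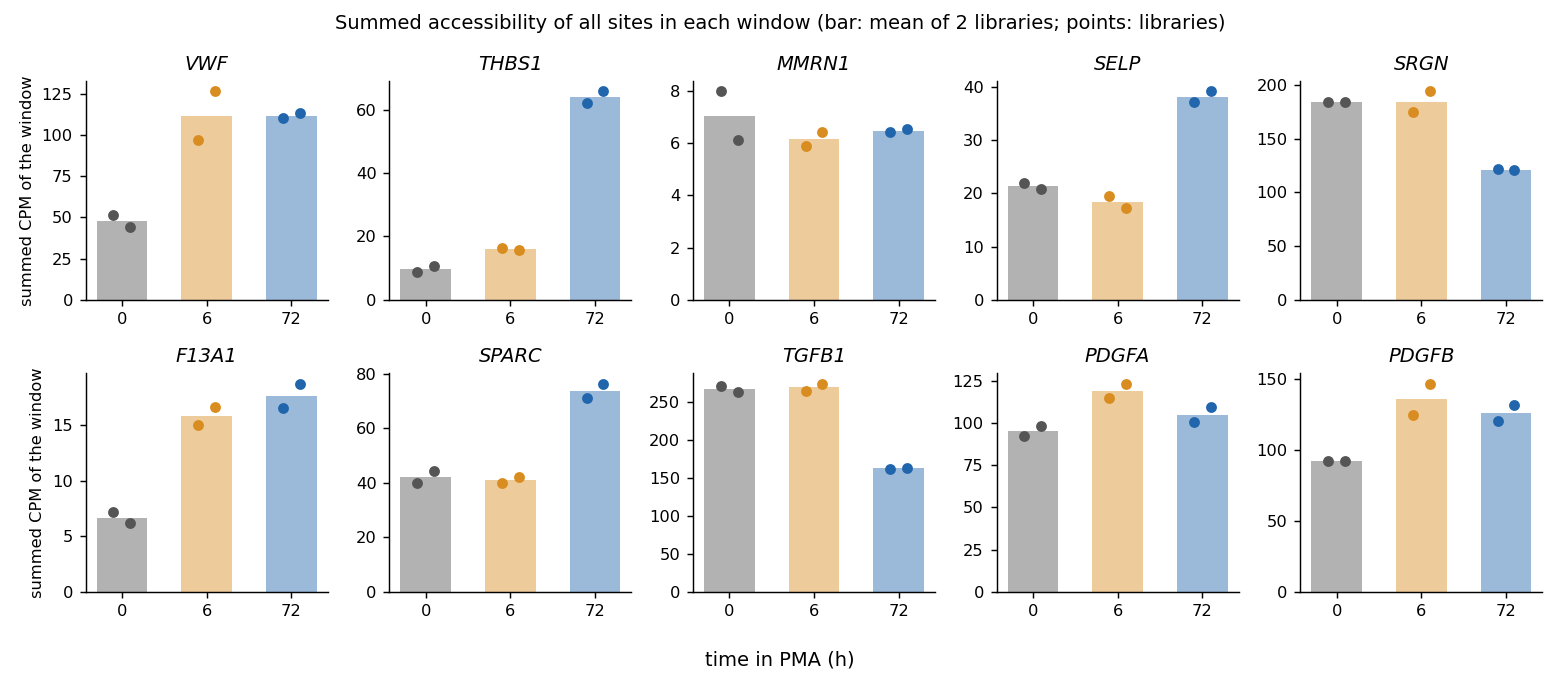
Summed CPM of all sites in each window (bars from 0, mean of 2 libraries; points, libraries) at 0, 6 and 72 h in PMA, with a separate axis for each gene. VWF, F13A1, PDGFA and PDGFB were higher from 6 h on, where a single site each gave the 6 h rise of F13A1 and of PDGFA. THBS1 was highest at 72 h (6.64 times the 0 h mean), and SRGN and TGFB1 were lower at 72 h (0.658 and 0.608). The fall of SRGN lay in a single site at the end of the neighbouring VPS26A gene.

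Other genes of platelet granules were described by the same window rule. Windows of 13 cargo genes, which encode secreted contents such as platelet factor 4 (PF4) and the chemokine precursor PPBP, held 297 tested sites. Of these, 101 (34.0%) were higher and 33 (11.1%) lower at 6 h, and 139 (46.8%) were higher and 74 (24.9%) lower at 72 h, with medians of 0.51 and 0.76. Among all tested sites the shares were 23.4% and 16.8% at 6 h, then 38.2% and 29.2% at 72 h. LTBP1, which anchors latent TGF-beta, alone had 106 of these sites, with 67 higher and 9 lower at 72 h. Without LTBP1, a choice made after the values were seen, 72 of 191 cargo sites (37.7%) were higher at 72 h, near the share over all sites. At that time 65 of the 191 (34.0%) were lower, beside 29.2% over all sites. APP, the amyloid precursor protein carried in alpha granules, had 10 of 17 higher and none lower, while VEGFA, an angiogenic factor, had 8 higher and 14 lower of 30. Windows of 14 genes for granule membranes, biogenesis and release held 286 tested sites, of which 69 (24.1%) were higher and 61 (21.3%) lower at 6 h, and 92 (32.2%) higher and 120 (42.0%) lower at 72 h, with medians of −0.04 and −0.16. Its share of higher sites at 6 h was also near that over all sites. LYST, a regulator of lysosome-related organelles, had 28 of 38 higher and 1 lower at 72 h, and RAB27A, a GTPase of granule transport, had 2 of 27 higher and 20 lower. The 2 lists had 590 sites, 8 of which the F5 window shared with that of SELP. Under the factors from shared peaks the cargo sites called lower were 17 at 6 h and 21 at 72 h, and the second list had 29 lower at 6 h, and 144 higher and 49 lower at 72 h. Under total counts 44 cargo sites were lower at 72 h. Without 6 h replicate 2 the second list had 42 higher and 38 lower at 6 h. No test of the difference between the lists was made.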

How the data were processed

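ATAC-seq libraries of wild-type K562 at 0, 6 and 72 h of 25 nM PMA (2 each) were analysed from the authors' deposited table of raw counts per site and library. The table also holds the authors' log2 fold changes and adjusted p-values, of which only log2 values and class names are quoted. The authors' peak lists per library hold a −log10 q per peak, and only peak positions were used, to count peaks and to choose sites for 1 scaling. Per the submitters' processing notes the tools were Trim Galore 0.4.3, BWA 0.7.17, SAMtools 1.9, MACS2, bedtools 2.26, deepTools 3.0.1 and DESeq, with build hg38; their settings and order, and how Tn5 cut positions and duplicates were treated, are not given in the sources used here.

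Starts in the table were read as counted from 0 (40322 equal a peak start) and are printed counted from 1. Genes and starts came from the RefSeq table for GRCh38.p14, which gives gene intervals without exons or UTRs; the strands of VWF, SRGN and PDGFB were taken from general knowledge. Counts were fitted in edgeR 4.0.16 (R 4.3.3, limma 3.58.1) with TMM factors, the default filter on low counts (minimum 10; 177759 of 181135 sites kept, 3376 not tested), 1 model over all 6 libraries with time group as the only term, and the quasi-likelihood test with Benjamini-Hochberg adjustment over all tested sites. CPM is the count per 1e6 of the TMM-scaled library total. Median counts per site were 21 to 94 per library, so weak sites carry large errors. The code was tested on simulated data.

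For each gene the text names the strongest promoter site, the distal site with the highest mean CPM, the distal sites with the largest rise and fall at 72 h, and the one with the largest change at 6 h. The last 3 kinds had to be called, have a mean CPM of at least 1 and have no overlap between groups. Distal means over 1000 bases from the start and from ends of other protein-coding genes. The members and lists were chosen with earlier results of these data known. Alternatives were RLE, total counts, loess offsets, TMM factors from sites with a peak in all 6 libraries, no filter, the replicate number as a block, each library left out, DESeq2 1.42.0, an adjusted p under 0.01 with a log2 fold change beyond 1, and a window of 10 kb. The cargo list without LTBP1 was added after seeing the data. Single genes of the marker and granule lists that are not named are not reported here on their own.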

Additional observations from a re-analysis of the deposited data

How the results depend on the processing

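Replicate numbers are not stated to pair the libraries, and deviations of same-numbered libraries correlated at 0.082, 0.053 and 0.085, so the block is only an alternative; with the replicate block 46 sites were higher and 21 lower at 6 h, 95 and 32 at 72 h, then 59 and 35 between 6 and 72 h. A window of 10 kb gave 28 higher and 6 lower at 6 h, 54 and 13 at 72 h, then 28 and 18 between 6 and 72 h. Sites called lower numbered 9, 17 and 15 in these comparisons under total counts, 8, 8 and 7 with factors from sites with a peak in all 6 libraries, and 9, 18 and 13 at the stricter threshold. Higher sites at 72 h against 6 h numbered 92 with the factors from shared peaks, 36 under loess offsets, 31 with DESeq2 and 31 at the stricter threshold. Leaving out 1 library gave 34 to 43 higher and 12 to 18 lower at 6 h, 77 to 94 and 27 to 33 at 72 h, then 30 to 67 and 16 to 37 at 72 h against 6 h. Among the named sites the sign turned in 11 cases where the main or the alternative value was called, and other turns of sign were not counted. At 72 h against 0 h these were, with the factors from shared peaks, SRGN peak24561 (0.95), SPARC peak137425 (0.14), PDGFA peak150716 (0.33), PDGFA peak150715 (0.69) and PDGFB peak110951 (0.10); under total counts SRGN peak24561 (0.48); and under loess offsets PDGFA peak150716 (0.23). At 72 h against 6 h they were TGFB1 peak83896 (0.27 under loess offsets, 0.16 with the factors from shared peaks) and PDGFA peak150722 (0.20 and 0.22). The cause of these changes was not tested; each scaling shifts all sites.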

Other observations

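In the authors' deposited table each site has a class name and log2 values against 0 h. Of 38 sites around the 10 genes with a class other than static, 7 were in classes named down, and the deposited log2 value at 72 h was positive for all 7. Of the 31 in classes named up, 4 had a negative one. Over all sites of that deposited table, a share of 69.9% of 10935 sites in down classes and 70.8% of 26674 in up classes had a positive log2 value at 72 h. The PDGFA site peak150722 is in a down class with deposited log2 values of 3.23 at 6 h and 2.78 at 72 h. The class names were not used in any comparison.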
